A study of Mus musculus with 6 samples.

Results

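The 10 genes described here encode the ligands insulin-like growth factor 1 and 2 (Igf1, Igf2), the receptors Igf1r, Insr and Igf2r, the adaptors Irs1 and Irs2, and the forkhead transcription factors Foxo1, Foxo3 and Foxo4. They were taken by symbol from a table of 23361 genes, and all 10 were found. The RNA came from whole testes of 6 adult C57BL/6J mice about 120 days old, all homozygous for Ret (V805A). Ret is the receptor tyrosine kinase for glial cell line-derived neurotrophic factor (GDNF), and the substitution lets the kinase be blocked by the small molecule 1NaPP1-HCl. The 3 control mice were injected daily for 9 days with vehicle, a mixture of saline, cremophor and ethanol, at 10 microliters per gram of body weight. The 3 inhibitor mice received 1NaPP1-HCl dissolved in that vehicle at the same volume. Testes were dissected on day 14, after 5 days without injections. No mouse had an unsubstituted Ret, so effects of the compound on Ret and on other targets cannot be told apart. The genes were chosen with results of this comparison known, among them the call of Igf1r as lower in inhibitor mice. Their values are therefore a description of these 6 libraries and support nothing beyond it.

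IGF1 and IGF2 bind the IGF1 receptor, a tyrosine kinase closely related to the insulin receptor, and both receptors phosphorylate the IRS adaptors. IRS proteins recruit phosphoinositide 3-kinase, which activates the kinase AKT. AKT phosphorylates FOXO factors, 14-3-3 proteins hold them in the cytoplasm, and their target genes are no longer activated. In the testis, insulin-family receptors support the proliferation of immature Sertoli cells, and Foxo1 is known as a marker of gonocytes and undifferentiated spermatogonia that is needed to maintain the stem cell pool.

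Library totals ranged from 23144295 to 43127892 fragments assigned to genes. Levels are given in CPM, fragment counts brought to a common library size and adjusted for composition by the trimmed mean of M values (TMM). Before that scaling, 1 CPM stood for between 23.1 and 43.1 fragments. Spermatid markers (Prm1, Tnp1 and 6 others) summed to between 14829 and 17830 CPM in this tissue, and markers of the epididymis to between 1.82 and 7.57 CPM, with Lcn5 at 0 in every library. Ret RNA itself stood at 2.17 ± 0.294 CPM with vehicle, against 0.579 ± 0.0858 CPM with inhibitor (SD, n = 3 per group). Each library is a different mouse by its label. A gene is called here where its p from edgeR's quasi-likelihood test, adjusted over all genes, was under 0.05, and this held for 16 lower and 10 higher genes among 16658 tested. All 10 genes of the pathway passed the filter on low counts and were tested.

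Per unit of transcript length, Foxo3 was the most abundant of the 10 genes and Irs1 the least. On the deposited FPKM scale, which corrects for transcript length and library size, Foxo3 lay between 6.13 and 7.97 in the 6 libraries and Irs1 between 0.196 and 0.340. Neither range touched that of any other member. Between them, in order of the mean FPKM over all 6 mice, came Igf2 (2.84), Igf2r (2.63), Insr (2.52), Foxo4 (2.15), Foxo1 (2.04), Igf1r (1.84), Igf1 (1.59) and Irs2 (1.21). The ranges of every pair of neighbours in this stretch overlapped. Foxo3 was near the middle of all tested genes, with a mean FPKM above that of 51.9% of them. Irs1 exceeded 6.10%, and the other 8 genes between 22.3% and 35.1%.

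**Figure D1:**
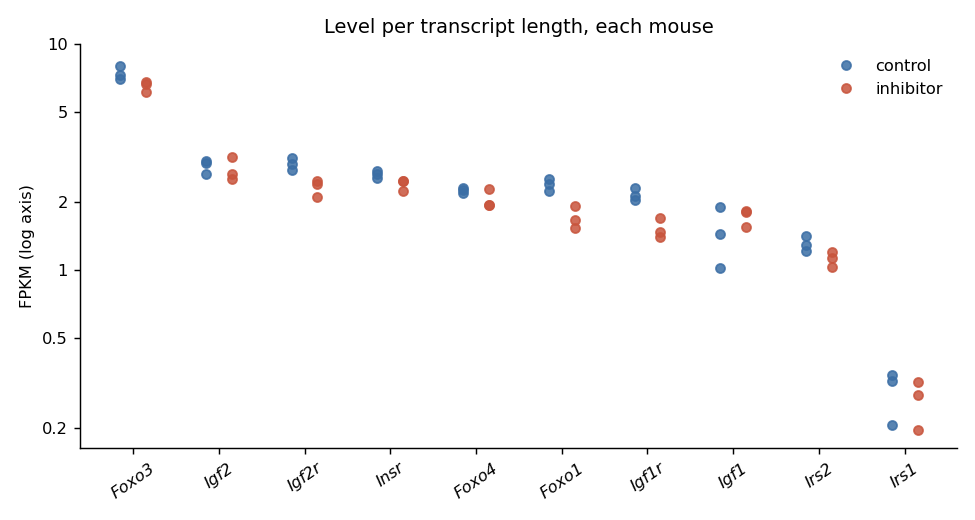
Deposited FPKM (log axis) of the 10 genes in each mouse, ordered by the mean over all 6 libraries, with control mice in blue and inhibitor mice in red. Foxo3 stands above all other members and Irs1 below them in every library.

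The start regions of the genes are shown for the 3 members with the lowest log2 fold changes between inhibitor and control mice (Igf1r, Foxo1 and Igf2r) and for Igf1, the only member with a positive one. RefSeq promoter windows on GRCm38.p6 were found for 8 of the 10 genes, and the 250 bases before the annotated start are given 5′ to 3′ on the gene's strand. These starts can differ from the GENCODE M21 gene bounds given below. The window of Igf1 lies inside those bounds, and the windows of Igf1r and Irs2 end some way before them. Capitals mark the GC box GGGCGG or its reverse complement CCGCCC, bound by SP1-family factors, and the E-box CACGTG, bound by USF and related factors; a match is a match of letters only.
Igf1r (chr7:67952007-67952256, + strand): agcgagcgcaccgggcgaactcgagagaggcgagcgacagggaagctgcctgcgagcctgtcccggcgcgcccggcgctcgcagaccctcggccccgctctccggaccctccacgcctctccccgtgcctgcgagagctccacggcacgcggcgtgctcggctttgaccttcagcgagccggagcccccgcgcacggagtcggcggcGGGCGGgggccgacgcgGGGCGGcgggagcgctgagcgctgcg
Igf2r (chr17:12769707-12769956, - strand): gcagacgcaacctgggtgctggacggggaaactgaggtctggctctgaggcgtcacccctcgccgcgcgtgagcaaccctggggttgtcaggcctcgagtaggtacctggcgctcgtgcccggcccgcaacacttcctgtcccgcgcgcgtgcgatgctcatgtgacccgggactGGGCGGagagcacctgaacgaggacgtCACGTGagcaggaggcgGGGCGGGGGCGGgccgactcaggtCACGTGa
Foxo1 (chr3:52268087-52268336, + strand): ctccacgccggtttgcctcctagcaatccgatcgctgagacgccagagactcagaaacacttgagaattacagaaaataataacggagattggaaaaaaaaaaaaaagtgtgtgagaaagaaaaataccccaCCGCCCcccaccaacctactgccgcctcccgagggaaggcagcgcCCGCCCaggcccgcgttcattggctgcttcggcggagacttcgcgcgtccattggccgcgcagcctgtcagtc
Igf1 (chr10:87860861-87861110, + strand): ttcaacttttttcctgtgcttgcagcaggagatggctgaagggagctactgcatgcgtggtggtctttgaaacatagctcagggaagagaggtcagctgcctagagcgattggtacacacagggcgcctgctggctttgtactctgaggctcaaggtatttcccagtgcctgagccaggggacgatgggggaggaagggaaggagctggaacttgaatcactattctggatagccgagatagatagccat
The windows of Igf1r, Igf2r and Foxo1 held 2, 3 and 2 GC boxes, of which the last 2 in Igf2r abut, and had a GC content of 77.6%, 69.2% and 56.00%. That of Igf1 held none and had a GC content of 52.8%, near the median of 52.4% over all 32841 windows in the table. The quartiles over all windows were 45.2% and 61.2%, and the window of Foxo1 lay between them too. A GC box on either strand was present in 32.7% of all windows and in 8 of the 11 windows of the members. Among these were also windows of Foxo3, Irs1, Irs2 and Igf2, whose estimates were closer to 0. Several of the 11 windows belong to Igf2 alone, and only some of those held a GC box. The FOXO core GTAAACA or its reverse complement TGTTTAC was found in none of the 11 windows and in 3.17% of all windows.

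The groups overlapped in both ligand genes. Igf1 (chromosome 10, 87858265 to 87937042, forward strand of GRCm38, GENCODE M21), the endocrine and paracrine mediator of growth hormone action, stood at 6.89, 10.00 and 7.35 CPM in controls 1, 2 and 3 and at 10.1, 8.18 and 7.35 CPM in inhibitor mice 1, 2 and 3. The groups overlapped fully, with control 2 and inhibitor 1 high and control 1 lowest. Its log2 fold change, inhibitor over control, was 0.07 (SE 0.16), the only positive estimate among the 10 genes, and it turned negative without control 1 (−0.03) or without inhibitor 1 (−0.07). Counts were between 172 and 439 fragments per library. For Igf1 the 2 scales of the data disagreed between libraries: 1 FPKM corresponded to 6.79 CPM in control 1 but 4.48 CPM in inhibitor 2. This ratio had a coefficient of variation of 15.3% over the libraries, against 0.908% for Igf2 and 0.268% for Igf1r. The conversion between CPM and FPKM for Igf1 therefore differed from library to library, and the reason was not tested. On the log2(FPKM + 0.1) scale the difference of Igf1 between groups was 0.27.

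Igf2 (chromosome 7, 142650766 to 142666816, reverse strand), an imprinted fetal growth factor expressed from the paternal allele, was at 11.01, 9.77 and 10.7 CPM in vehicle mice, against 9.66, 9.05 and 11.3 CPM in mice given the inhibitor. Inhibitor 3 was the highest of all libraries and inhibitor 2 the lowest, so the groups overlapped. The log2 fold change was −0.06 (SE 0.11). GENCODE M21 places a second protein-coding gene, Gm49394, over Igf2 on the same strand, and reads of that gene, which is not in the table, could not be told apart from those of Igf2. On the same strand as Foxo1 lies Gm38034, also not in the table. Annotated genes lie on the opposite strand of Insr, Igf1, Igf2, Igf2r, Irs1, Irs2 and Foxo1, and since the strand setting of the counting is not known here, their reads may be included. Of these only Airn, over Igf2r, and 9530052E02Rik, over Irs2 with between 0 and 6 fragments per library, are in the table.

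Igf1r was the one receptor, and the one member, called lower. Igf1r (chromosome 7, 67952827 to 68233668, forward strand), the kinase receptor for both IGFs, was at 27.4, 25.7 and 24.5 CPM in vehicle mice, against 16.9, 17.6 and 20.3 CPM in mice given the inhibitor, on between 403 and 1128 fragments per library. The highest inhibitor mouse, number 3, was below the lowest control, number 3. The group means were 25.9 ± 1.46 and 18.3 ± 1.82 CPM (SD, n = 3 per group), which puts the inhibitor mice at 70.6% of control. The log2 fold change was −0.50 (SE 0.09), and Igf1r ranked 24 among all genes by p-value. It was called by the edgeR test (adjusted p = 0.0484), against a background of 0.096% of tested genes called lower. Because that call helped to choose the genes, nothing is read from the count. The call was also lost with RLE size factors (edgeR adjusted p = 0.054), with a filter of at least 50 counts in 3 libraries (0.065) and with limma-voom (0.059). In 13 of 17 alternatives 0 members were called. Those fits had 3 or 4 members lower at an unadjusted p under 0.05, beside 782 to 1451 of all tested genes. DESeq2 called 3 members lower (Igf1r, Foxo1 and Igf2r) and none higher, beside 1.45% and 3.2% of the genes it tested. Without a filter on low counts edgeR called 2 lower (Igf1r and Foxo1) and none higher, beside 0.277% and 0.282%. Without inhibitor 3 it called 3 lower (Igf1r, Foxo1 and Igf2r) and none higher, beside 5.54% and 8.71%. The call of Igf1r was lost without control 1 (adjusted p = 0.292), control 2 (0.256), control 3 (0.119), inhibitor 1 (0.193) or inhibitor 2 (0.169), and held without inhibitor 3 (0.000340), all by the edgeR test. Without control 1, control 2, inhibitor 1 or inhibitor 2, 0 of all tested genes were called in either direction. Without control 3, 7 genes were called lower and 3 higher. The estimate of Igf1r stayed between −0.59 and −0.44 in these 6 fits. In whole-testis RNA, fewer cells that express a gene and less of its RNA per cell cannot be told apart.

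Insr (chromosome 8, 3122061 to 3279617, reverse strand), the insulin receptor and closest relative of Igf1r, was at 24.8, 25.6 and 23.7 CPM in vehicle mice, against 23.2, 20.8 and 22.99 CPM in mice given the inhibitor. All 3 inhibitor values were below all 3 controls, but by a margin that was small beside the spread within the groups. Means were 24.7 ± 0.935 and 22.3 ± 1.31 CPM (SD, n = 3 per group), and the log2 fold change was −0.14 (SE 0.07), which did not pass (edgeR adjusted p = 0.320). CPM does not correct for transcript length, so Igf1r and Insr were set side by side in FPKM. The ratio of their FPKM values, Igf1r to Insr, was 0.862, 0.780 and 0.803 in controls and 0.565, 0.658 and 0.687 in inhibitor mice, without overlap. This ratio does not depend on how libraries are scaled. It was not corrected for the length and GC trend described below, and the call of Igf1r helped to choose the genes.

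Igf2r (chromosome 17, 12682406 to 12769664, reverse strand), the cation-independent mannose 6-phosphate receptor, has no kinase and removes IGF2 by uptake and degradation. It stood at 26.2, 24.7 and 27.7 CPM in vehicle mice, against 22.04, 18.6 and 21.2 CPM in mice given the inhibitor, and the groups did not overlap. Means were 26.2 ± 1.48 and 20.6 ± 1.79 CPM (SD, n = 3 per group), and the log2 fold change of −0.34 (SE 0.08) did not pass (edgeR adjusted p = 0.0928). It passed by edgeR without inhibitor 3 (adjusted p = 0.0125) and by DESeq2 (0.0288). The antisense transcript Airn, which lies across the start of Igf2r, had between 0 and 6 fragments per library, beside between 425 and 1084 fragments for Igf2r. The FPKM ratio of Igf2r to Igf2, receptor to ligand, was 1.02 ± 0.0448 with vehicle, against 0.837 ± 0.0856 with inhibitor, again without overlap.

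**Figure D2:**
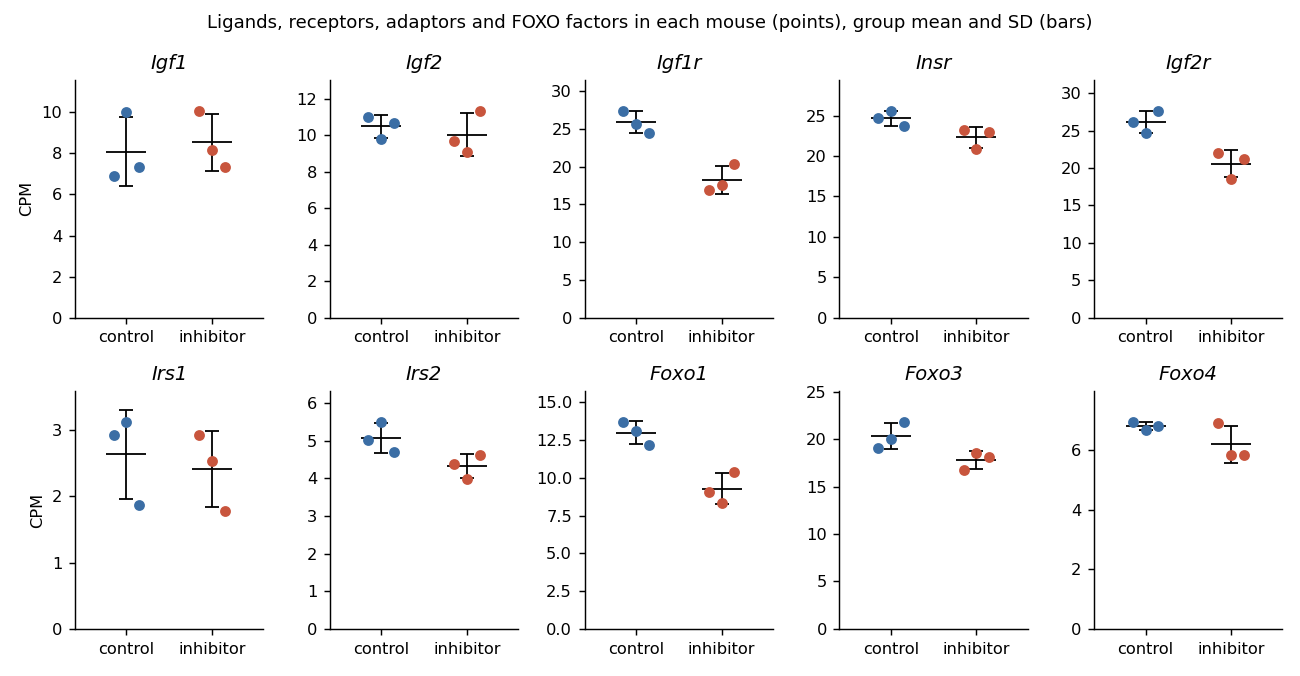
CPM of each gene in each mouse (points, controls blue and inhibitor mice red), with the group mean and SD (n = 3 per group) as black bars; every axis starts at 0. The groups do not overlap in Igf1r, Insr, Igf2r, Irs2, Foxo1 and Foxo3, with the widest gap in Igf1r, and they overlap in Igf1, Igf2, Irs1 and Foxo4.

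The adaptors Irs1 and Irs2 were the 2 genes with the lowest FPKM. Irs1 (chromosome 1, 82233101 to 82291416, reverse strand) had between 51 and 137 fragments, and its levels were 2.92, 3.12 and 1.87 CPM in vehicle mice, against 2.92, 2.54 and 1.78 CPM in mice given the inhibitor. The mice numbered 3 were the lowest of both groups, and the groups overlapped. Its log2 fold change was −0.14 (SE 0.23). Irs2 (chromosome 8, 10984681 to 11008458, reverse strand), whose RNA is known to rise in liver when FOXO1 is active, was at 5.01, 5.49 and 4.69 CPM in vehicle mice, against 4.38, 3.98 and 4.62 CPM in mice given the inhibitor. Inhibitor 3 lay just under control 3, so the groups did not overlap. The log2 fold change of −0.23 (SE 0.13) did not pass (edgeR adjusted p = 0.396).

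The adaptor genes Irs1 and Irs2 shared a stretch in this window, shown over 30 bases of each with the E-box in capitals.
Irs1 (chr1:82291537-82291566, - strand): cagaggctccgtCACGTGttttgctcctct
Irs2 (chr8:11008956-11008985, - strand): gtaacgcagagtCACGTGttgttttgctct
The E-box began 115 bases before the start of Irs1 and 44 bases before that of Irs2. In both genes it was followed by TGTTTTG, the reverse complement of the insulin response core CAAAACA, which in Irs1 overlaps the last bases of the E-box. An E-box was present in 6.02% of all windows and the insulin response core on either strand in 5.56%. Igf2r was the third member with an E-box, and no other member had the insulin response core.

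Of the 3 FOXO members, Foxo1 had the lowest log2 fold change. Foxo1 (chromosome 3, 52268336 to 52353221, forward strand) was at 13.7, 13.1 and 12.2 CPM in vehicle mice, against 9.07, 8.36 and 10.4 CPM in mice given the inhibitor, on between 191 and 576 fragments. The groups did not overlap, and inhibitor 3 was again the inhibitor mouse nearest to the controls. Inhibitor mice averaged 9.27 ± 1.03 CPM (SD, n = 3), or 71.3% of the control mean, close to the 70.6% of Igf1r. The log2 fold change of −0.48 (SE 0.10) did not pass in the edgeR test (adjusted p = 0.0805). It passed by edgeR without a filter on low counts (adjusted p = 0.0477) and without inhibitor 3 (0.00216), and by DESeq2 (0.0158).

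Foxo3 (chromosome 10, 42181841 to 42276755, reverse strand), the FOXO factor known for keeping primordial oocytes dormant, was at 19.1, 20.1 and 21.8 CPM in vehicle mice, against 16.8, 18.5 and 18.1 CPM in mice given the inhibitor. These groups did not overlap either, with inhibitor 2 a little below control 1. The log2 fold change was −0.19 (SE 0.08), with an edgeR adjusted p of 0.241. Foxo4 (chromosome X, 101254528 to 101260873, forward strand), an X-linked family member, was at 6.93, 6.65 and 6.80 CPM in vehicle mice, against 6.88, 5.82 and 5.84 CPM in mice given the inhibitor. Inhibitor 1 lay among the controls and the other 2 inhibitor mice below them, and the log2 fold change was −0.13 (SE 0.12). Of the summed FPKM of the 3 genes, Foxo3 made up 61.5% ± 2.41 with vehicle, against 63.4% ± 2.67 with inhibitor (SD, n = 3). The share of Foxo1 was 19.8% ± 1.73 and 16.6% ± 1.62, with overlap, since inhibitor 3 at 18.2% was above control 3 at 17.9%. Foxo6, the fourth member of the family, was at 4.36 ± 1.02 and 3.11 ± 0.375 CPM (log2 fold change −0.49, edgeR adjusted p = 0.198), and was named after its values were seen.

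Markers of undifferentiated spermatogonia, the cells in which Foxo1 protein is known to be abundant, were also lower in inhibitor mice. Of 11 tested markers in a list of 13, Ret among them, 10 had lower estimates, 4 were called lower (edgeR, adjusted p threshold 0.05) and the median log2 fold change was −0.50. Over all tested genes 51.0% had lower estimates and 0.096% were called lower. With the length and GC trend described below removed, 10 estimates were again lower and the median of these markers was −0.44. Their summed level was between 95.9 and 97.7 CPM in controls and between 70.5 and 84.04 CPM in inhibitor mice, and inhibitor 3 was again the nearest to the controls. Every marker of the list had fragments in some library, although Nanos2 had at most 3 in any. The part of these cells in the values of Foxo1 and Igf1r was not tested. Markers of Sertoli cells, in which Igf1r and Insr are also expressed, summed to between 1416 and 1474 CPM in controls and between 1310 and 1610 in inhibitor mice, with 9 of 12 estimates lower and none called. The sums of Leydig (986 to 1229 against 916 to 1095 CPM), peritubular (325 to 381 against 328 to 345) and endothelial markers (44.1 to 47.5 against 36.5 to 46.4) overlapped too. Estimates were lower in 6 of 8 Leydig, 6 of 7 peritubular and 6 of 7 endothelial markers, and none was called. Their medians were −0.08, −0.22 and −0.15, and −0.09, −0.07 and −0.05 with the length and GC trend removed. In differentiating spermatogonia 7 of 8 marker estimates were lower (median −0.27, and −0.32 with the length and GC trend described below removed) and none was called, although the summed level was higher in every inhibitor mouse (586 to 592 against 600.5 to 638 CPM). Spermatocyte (5729 to 6031 against 6279 to 6607 CPM) and spermatid sums (up to 15576 against at least 15994 CPM) were also higher in every inhibitor mouse, with 7 of 8 estimates higher in each list and none called. Their median log2 fold changes of 0.18 and 0.15 were 0.0098 and 0.05 with the trend removed. Macrophage markers summed to 386 to 393 against 429 to 461 CPM, and none was called. Of 7 estimates 4 were lower, down to −0.08, and 3 were higher, up to 0.57, with a median of −0.01. At an unadjusted p under 0.05 the edgeR fit had 3 of them higher and 0 lower, beside 9.43% and 8.48% of all tested genes.

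Most members have long transcripts, a feature the choice of genes did not use. The longest annotated transcript of the 10 genes ranged from 3162 bases (Foxo4) to 11409 bases (Igf1r), and 9 of the 10 exceeded the median of all tested genes. The median of the members was 7858 bases against 3183 over all tested genes. Across the transcriptome the difference between groups moved with length. The median log2 fold change was 0.16 over 1024 tested genes under 1000 bases, −0.04 over 3373 genes of 4000 to 6000 bases, −0.09 over 1514 genes of 6000 to 9000 bases and −0.14 over 536 genes of 9000 bases or more. Insr and Irs1 lay at the median of genes of their length, and Igf2 (−0.06) was close to it. Igf1r, Foxo1 and Igf2r lay furthest below it, Irs2, Foxo3 and Foxo4 lay below it by less, and Igf1 lay above it.

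**Figure D3:**
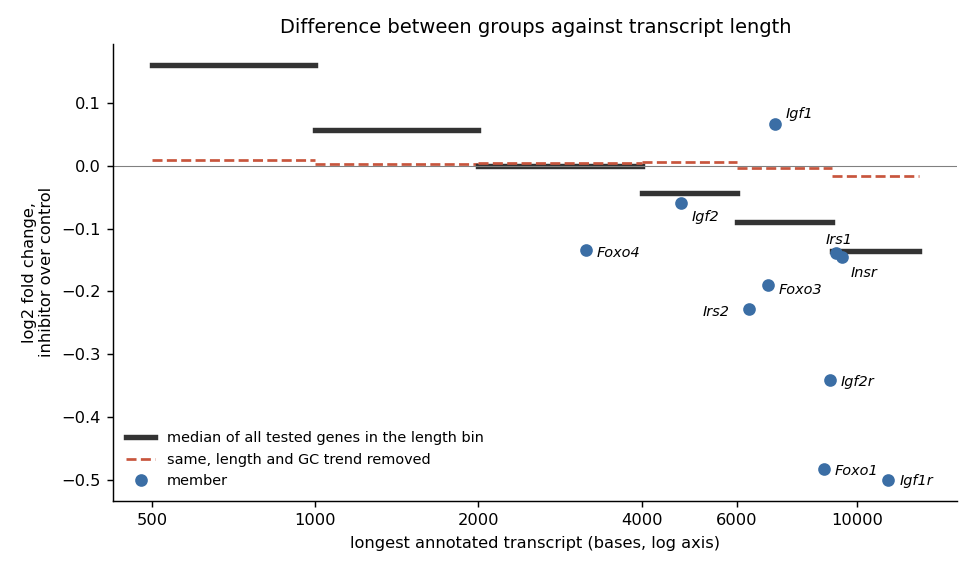
Log2 fold change (inhibitor over control) of the 10 genes (blue points) against the length of their longest annotated transcript (log axis), with the median of all tested genes in each length bin before (black) and after (red, dashed) removal of the length and GC trend. The black medians go from 0.16 in the shortest bin to −0.14 in the longest, and Igf1r, Foxo1 and Igf2r lie furthest below them.

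After removing, library by library, the trend of levels on length and GC content, the log2 fold change of Igf1r went from −0.50 to −0.35 (edgeR adjusted p = 0.119), which ended its call. Foxo1 went to −0.37 (adjusted p = 0.146) and Igf2r to −0.20 (adjusted p = 0.258) in the same edgeR fit. Insr was left at −0.04, Foxo3 at −0.05, Irs2 at −0.06, Foxo4 at −0.07 and Irs1 at −0.0038, while Igf1 was at 0.05 and Igf2 turned to 0.05. Before this step 6 of the 10 genes (Igf1r, Insr, Igf2r, Irs2, Foxo1 and Foxo3) had all inhibitor mice below all controls, beside 11.9% of all tested genes. The share was 26.4% of genes of 6000 to 9000 bases and 30.2% of those of 9000 bases or more. After it 3 did (Igf1r, Igf2r and Foxo1), beside 8.46% of all tested genes and 10.4% and 10.6% in these length ranges. With the trend removed 0 members were called in either direction by edgeR (3 lower at an unadjusted p under 0.05), beside 0.072% of tested genes lower and 0.084% higher. Estimates were below 0 in 9 of the 10 before, beside 51.0% of all tested genes, and in 8 after, beside 48.5%. The same comparison helped to choose the genes, so nothing is read from these shares.

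**Figure D4:**
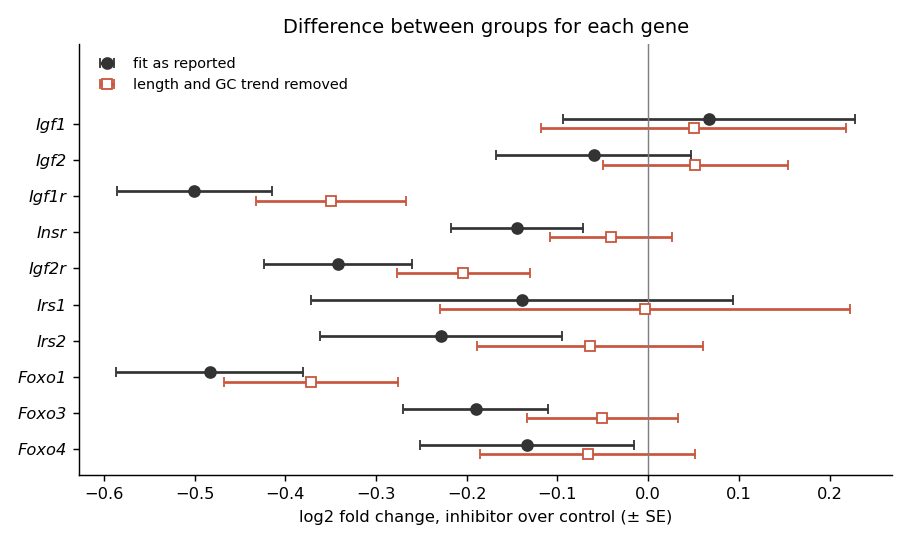
Log2 fold change with its standard error for each gene in the fit as reported (black circles) and with the length and GC trend removed (red squares). Igf1r, Foxo1 and Igf2r stay lowest in both fits, at −0.50, −0.48 and −0.34 and then −0.35, −0.37 and −0.20, and the other genes move close to 0.

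The rest of the pathway was examined in 5 lists chosen by function, with 118 genes besides the members, of which 112 were tested. Of these, 1 was called lower, Ccnd2, and none higher (edgeR adjusted p threshold 0.05, beside 0.096% of all tested genes called lower and 0.06% higher). At an unadjusted p under 0.05 the edgeR fit had 22 of the 112 lower and 5 higher, beside 8.48% and 9.43% of all tested genes. Estimates were below 0 in 82 of the 112 and in 51.0% of all tested genes. The median log2 fold change of the 112 was −0.09, against −0.0041 over all tested genes. With the length and GC trend removed it was −0.03, and 69 of the 112 were below 0, beside 48.5% of all tested genes. DESeq2 called 3 lower and 1 higher, beside 1.45% and 3.2% of all genes it tested. Without inhibitor 3 the edgeR test called 11 lower and 2 higher, beside 5.54% and 8.71% of all tested genes.

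Among genes that carry or modify the ligands, 12 of 16 tested estimates were lower (median −0.18) and none passed. H19, the maternally expressed noncoding RNA next to Igf2, had the lowest estimate, from 1.52 ± 0.238 to 0.615 ± 0.353 CPM (log2 fold change −1.32, edgeR adjusted p = 0.110). It passed without inhibitor 3, at −1.82 (edgeR adjusted p = 0.00477), in a fit that called 5.54% of all tested genes lower. Igf2bp1, which encodes an RNA-binding protein of Igf2 and other mRNAs, was at −0.38 and its relative Igf2bp3, named after its values were seen, at 0.12. Without inhibitor 3 Igf2bp1 passed too, at −0.48 (edgeR adjusted p = 0.00872). Insl3, the Leydig cell hormone of the relaxin family, stood at 637 ± 75.2 and 548 ± 26.95 CPM (−0.22), and Igfbp7 at −0.24. The insulin gene Ins2 had between 1 and 7 fragments and Ins1 had 0 in every library. A count of 0 allows up to 3 fragments, or 0.0696 to 0.13 CPM depending on the library, for counting error only.

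Of 17 tested adaptors and regulators close to the receptors all had estimates below 0, between −0.45 and −0.03 (median −0.11), and none passed. With the trend removed 13 of the 17 were below 0. The genes with the smallest p were Gab1, a docking protein (−0.18), Sh2b2, an adaptor of the insulin receptor (−0.45), the Ras exchange factor Sos2 (−0.15) and Enpp1 (−0.32). In the PI3K, AKT and mTOR list 24 of 33 were lower (median −0.08) and none passed. Mtor, the kinase shared by both mTOR complexes, stood at 393 ± 36.1 and 326 ± 14.3 CPM (−0.27, edgeR adjusted p = 0.0928, DESeq2 adjusted p = 0.0138). Rictor, which defines mTOR complex 2, was at −0.28, Tsc2, an inhibitor of complex 1, at −0.25, and the AKT phosphatase gene Phlpp1 at −0.16. With the trend removed these 4 were at −0.10, −0.22, −0.10 and −0.01, and the median of the list was 0.01. Rictor, Tsc2 and Phlpp1 passed without inhibitor 3 (edgeR adjusted p = 0.00566, 0.00342 and 0.0113), in the fit that called 5.54% of all tested genes lower.

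Partners and modifiers of FOXO proteins were divided, with 13 of 23 estimates lower and 10 higher (median −0.02), and none passed. The acetyltransferase genes Crebbp (−0.39) and Ep300 (−0.30), the arginine methyltransferase gene Prmt1 (−0.22) and the 14-3-3 gene Ywhag (−0.21) had the smallest p. Crebbp passed by DESeq2 (adjusted p = 0.00921), and Ywhag without inhibitor 3 in the edgeR test (0.00913). These fits called 1.45% and 5.54% of all tested genes lower. Of 25 tested genes known in other tissues as FOXO targets, Insr and Irs2 among them, 18 were lower (median −0.14) and 1 was called. That gene, Ccnd2, encodes cyclin D2 and is known to be repressed by FOXO factors and expressed in spermatogonia. It fell from 8.71 ± 0.425 to 5.28 ± 0.220 CPM (SD, n = 3 per group), a log2 fold change of −0.73 (edgeR adjusted p = 0.0319). The call was lost without control 1, 2 or 3 (adjusted p = 0.181, 0.240 and 0.119) or inhibitor 1 or 2 (0.155 and 0.129) and held without inhibitor 3 (0.00149) and with the trend removed (0.0405), in the edgeR test. Without control 1 or 2 or inhibitor 1 or 2, 0 of all tested genes were called. The antioxidant gene Sesn3 (−0.20), the cyclin gene Ccnd1 (−0.31), also repressed by FOXO factors, and Bcl2l11 (−0.27), which encodes the pro-apoptotic protein BIM, did not pass. Sesn3 passed without inhibitor 3 (edgeR adjusted p = 0.0372), again beside 5.54% of all tested genes called lower.

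**Figure D5:**
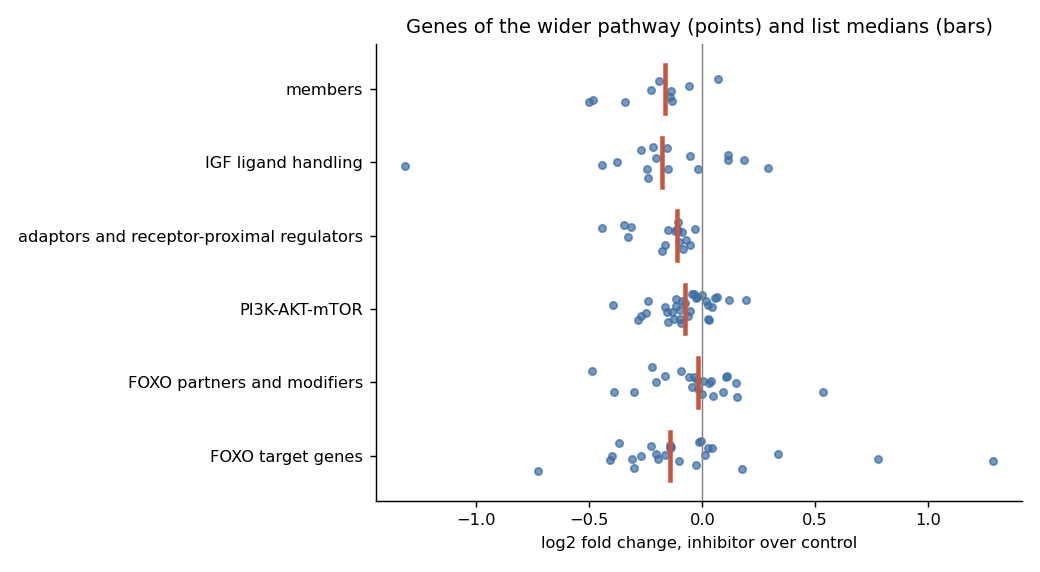
Log2 fold change (inhibitor over control) of every tested gene of the 10 members and of the 5 wider lists (points, jittered vertically), with the list median as a red bar; Insr and Irs2 are also among the FOXO targets. The medians lie between −0.18 and −0.02, and the points furthest out, H19 on the left and Pck1 on the right, did not pass.

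Over the 6 libraries, Foxo1 was the member whose levels ran most closely with those of Igf1r. Their log2 CPM values had a Pearson r of 0.979 (Spearman rho 0.943), against 0.836 for Igf1r with Irs2, 0.828 with Igf2r, 0.793 with Insr and −0.385 with Igf1. These 6 points share the group difference and the length trend, and 535 of 10915 named genes whose mean log2 CPM reached 2 had an r above 0.9 with Igf1r, so the values are a description only. The 5 genes most like Igf1r were E2f1 (r = 0.999), Pdcd11 (0.995), Tcf3 (0.994), Eri3 (0.992) and Zfp385b (0.992). E2f1, a transcription factor of the G1 to S transition, was at 5.28 ± 0.358 and 3.66 ± 0.357 CPM. The 5 most like Foxo1 were Fasn (0.998), Ccnd3 (0.995), Vps18 (0.995), Ncoa3 (0.994) and Fbrsl1 (0.993), out of 568 genes above 0.9.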

How the data were processed

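The deposited fragments per gene are the authors' expected counts, not scaled to depth: 98.8% of 140166 values were whole within 1e-06, no member had a fractional value, and all were rounded. FPKM values were made by the authors' software and deposited beside them. Cuffdiff 2.2.1, TopHat2 2.0.13, cutadapt 1.8 and build mm10 are named in the submitters' processing notes, with roles, annotation and strand setting not given in the sources used here. In the table, 2 further columns of scaled fragments were not used.

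Counts were filtered with filterByExpr and tested with edgeR 4.0.16 in R 4.3.3: trimmed mean of M values, robust quasi-likelihood F-test, two-sided, Benjamini-Hochberg adjustment at 0.05 over 16658 genes. A standard error is the fold change divided by the square root of F. Log2 CPM used a prior count of 2. Alternatives were RLE or library-total scaling, other filters, DESeq2 1.42.0, limma 3.58.1 (voom, or log2 FPKM), a block for the mouse number, leaving out each mouse, and a loess offset (span 0.5) of each library on length and GC content of the longest GENCODE M21 transcript, known for 93.3% of tested genes.

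The members, lists and rules were chosen with earlier results of these data known. Named were all members, up to 4 genes per list with the smallest p plus any called, and the 5 genes most like Igf1r and Foxo1 with mean log2 CPM of at least 2, without unnamed loci; Ret was added as the inhibitor's target. On simulated data for this comparison (16527 genes), 74.7% of genes changed 1.5-fold and 98% changed 3-fold were recovered, with 4 of 176 calls false. The simulated counts had no length and GC trend and no library set apart from its group. These rates therefore need not hold for the measured data. Selenop and Adgre1 were matched through the older symbols Sepp1 and Emr1.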

Additional observations from a re-analysis of the deposited data

How the results depend on the processing

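The estimate of Igf1r was negative in all 17 alternatives, but its call rested on the settings. Its log2 fold change (edgeR adjusted p unless named otherwise) was −0.50 with RLE factors (adjusted p = 0.054), −0.50 with at least 50 counts in 3 libraries (0.065), −0.35 with the length and GC trend removed (0.119), −0.50 with limma-voom (0.059), −0.48 and −0.32 with limma on log2(FPKM + 0.1) and log2(FPKM + 1) (0.179 each), and −0.59 to −0.44 with single mice left out. It stayed called with DESeq2, library totals, no filter, and without inhibitor 3. The number of members called lower was 3 with DESeq2, 2 with no filter, and 0 to 3 with single mice left out. It was 0 in 13 of the 17 alternatives, among them RLE factors, the stricter filter, the trend removed, limma-voom and both FPKM scales. In those 13, 3 or 4 members were lower at an unadjusted p under 0.05, beside 782 to 1451 of all tested genes. No member was called higher in any alternative. Over all genes, lower and higher calls were 166 and 367 with DESeq2, 7 and 3 with the stricter filter, 57 and 58 without a filter, 1 and 0 with limma on log2(FPKM + 0.1) and 0 and 0 on log2(FPKM + 1) (1179 and 1603 at an unadjusted p under 0.05). Higher calls were 4 with library totals and 3 with limma-voom. With single mice left out, lower calls ranged from 0 to 935 and higher calls from 0 to 1470. Scaling by library totals moved the split from 16 lower and 10 higher to 23 and 4. Calls in the wider lists were 3 lower and 1 higher with DESeq2, 0 lower on both FPKM scales, and 0 to 11 lower and 0 to 2 higher with single mice left out.

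The mouse numbers were taken only as numbers: same-numbered control and inhibitor mice had correlations of 0.096, −0.066 and 0.064 in their deviations from the group means, and not every mouse correlated best with its own number. With the mouse number as a block, 5 genes were called lower and 0 higher, and with the block and the trend removed 2 lower and 0 higher. Under the block Igf1r was at −0.50 (edgeR adjusted p = 0.121), with both −0.35 (0.224), and no member and no wider gene was called (0 in each). Directions turned in members near 0: Igf2 was at 0.052 with the trend removed and 0.045 with the block too, and −0.16 to 0.0052 with single mice left out. Irs1 was at 0.011 with the block and the trend removed and −0.32 to 0.043 with single mice left out, and Igf1 at −0.073 to 0.27. The causes were not tested. DESeq2 gave no adjusted p for Irs1 and Irs2, whose depth, at most 241 fragments, limits what can be seen in them.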

Other observations

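Ratios between pairs of members, taken from FPKM within each mouse, add the following values. Igf1 to Igf2, the ligand pair, lay between 0.333 and 0.720 over the 6 mice, so Igf2 had the higher FPKM in every mouse. The groups overlapped, and the FPKM of Igf1 carries the uneven conversion described above. Irs1 to Irs2 lay between 0.164 and 0.283, with the mouse numbered 3 lowest in both groups. Foxo4 to Foxo3 was 0.305 ± 0.0235 with vehicle and 0.317 ± 0.0483 with inhibitor (SD, n = 3 per group), and the groups overlapped.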
